A study of Mus musculus with 12 samples.

Results

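The collagen genes were examined in RNA-Seq data from the proximal colon of 12 mice. A gene was taken as a member when it was protein coding and its symbol was Col, a number, the letter a and a number. Of the 38924 Ensembl genes in the count tables, 44 were members, and GENCODE M21, an annotation of the mouse build GRCm38, holds the same 44. The markers Col1a1, Col1a2, Col3a1 and Col4a1 were among the 5 members with the highest levels. The mice were 6 APC Min/+ and 6 WT females of strain C57BL/6, all 6 weeks old. The Min allele is a germline nonsense mutation of Apc, a negative regulator of Wnt signaling. The APC Min/+ mice carried it on a single copy of the gene in every cell, and the WT mice carried none. Each value is from a separate mouse. The genotypes were housed in separate cages and arrived in 3 shipments, so that cage and genotype cannot be told apart, and the labels do not give the shipment of a mouse.

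Collagens are the main structural proteins of the extracellular matrix. Their chains wind into a triple helix built of Gly-X-Y triplets, because only glycine fits in the centre of the helix. The fibrillar types I, III and V form the banded fibers of the submucosa and lamina propria, and are made mainly by fibroblasts and smooth muscle cells. Type IV forms the sheet of the basement membrane under epithelia, around vessels and around muscle cells. Type VI forms beaded filaments between them, and the FACIT collagens, which have interrupted helices, sit on the surface of fibrils. In the normal colon most collagen lies in the submucosa and the muscle wall.

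The coding exons show this repeat directly. In the fibrillar genes much of the helix is encoded by exons of 54 bases, nearly all of which start with a glycine codon and hold 6 Gly-X-Y triplets. The first exon of this kind in the longest coding transcript is given for the fibrillar genes with the highest levels, for the 3 type V genes, and for a type IV, a type VI and a FACIT gene. Sequences are from GENCODE M21 transcripts, 5′ to 3′ on the coding strand, with the glycine codons in capitals.
Col1a1 exon 8: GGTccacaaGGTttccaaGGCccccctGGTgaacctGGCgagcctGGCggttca
Col1a2 exon 8: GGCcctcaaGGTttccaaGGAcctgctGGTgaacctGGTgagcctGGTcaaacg
Col3a1 exon 6: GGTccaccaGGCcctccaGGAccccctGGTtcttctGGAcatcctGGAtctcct
Col5a1 exon 15: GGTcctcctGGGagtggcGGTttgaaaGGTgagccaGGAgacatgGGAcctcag
Col5a2 exon 6: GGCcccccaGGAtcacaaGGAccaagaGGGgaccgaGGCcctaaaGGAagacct
Col5a3 exon 15: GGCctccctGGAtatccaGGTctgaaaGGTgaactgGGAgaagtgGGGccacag
Col4a1 exon 7: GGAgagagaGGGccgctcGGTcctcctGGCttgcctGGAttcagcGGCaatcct
Col6a1 exon 9: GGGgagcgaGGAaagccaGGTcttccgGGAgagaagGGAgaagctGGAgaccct
Col12a1 exon 55: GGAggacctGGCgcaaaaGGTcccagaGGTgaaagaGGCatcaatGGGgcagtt

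The exons shown lie at chr11:94939904-94939957 (forward strand, Col1a1), chr6:4515481-4515534 (forward, Col1a2), chr1:45325360-45325413 (forward, Col3a1), chr2:27965251-27965304 (forward, Col5a1) and chr1:45434892-45434945 (reverse, Col5a2). The others lie at chr9:20801068-20801121 (reverse, Col5a3), chr8:11245211-11245264 (reverse, Col4a1), chr10:76719623-76719676 (reverse, Col6a1) and chr9:79614349-79614402 (reverse, Col12a1). The 11 fibrillar genes had between 21 and 33 coding exons of 54 bases, against 0 to 28 in the other 33 members. Their longest uninterrupted run of Gly-X-Y triplets was between 216 and 344 triplets. In the other members the longest run was between 23 and 113, and in Col4a1 and Col4a2 it was 40 and 66. Repeated coding sequence of this kind is long and rich in G and C. The longest coding transcripts of the 42 tested members had a median length of 6084 bases and a median GC content of 55.4%, against 3047 bases and 50.2% for the 16061 tested genes with a coding transcript.

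Total counts on genes were between 50313805 and 197914821 per mouse. In APC Min/+ mice M10_2 and M13_1 the summed RPKM (counts scaled by gene length and by the total counts of the mouse) of 5 posterior Hox genes, which mark the distal colon and rectum, was 219 and 269. It was between 1.53 and 3.31 in the other 10 mice, so results are given with and without both. WT mouse M17_1 was the lowest mouse in 17 of the 25 collagen genes described below, and M10_2 was the highest in 18. Some results are therefore also given without M17_1. As M17_1 was chosen for its low collagen values, leaving it out lowers most of the fold changes by the choice itself. Although the labels name mucosa, the summed RPKM of 9 smooth muscle markers was between 1813 and 3034 in all mice, beside 5407 to 9343 for 8 epithelial markers. Apc itself was at 12.4 ± 1.19 RPKM in APC Min/+ and 11.6 ± 1.81 RPKM in WT mice (SD, n = 6 each), a gene count that does not separate the alleles. In bulk tissue, fewer cells of a type and less RNA per cell cannot be told apart.

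The collagen genes together took between 0.0835% and 0.443% of all counts in a mouse. Their summed RPKM had a mean of 335, to which the 11 fibrillar genes gave 52.1%, the 6 type VI genes 20.13%, the 6 type IV genes 15.4%, the 9 FACIT genes 6.23% and the multiplexins Col15a1 and Col18a1 3.14%. All remaining classes gave less than the multiplexins. Of the 44 genes, 8 had a mean of at least 10 RPKM, 16 were between 1 and 10, 10 were between 0.1 and 1, and 10 were lower.

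**Figure D1:**
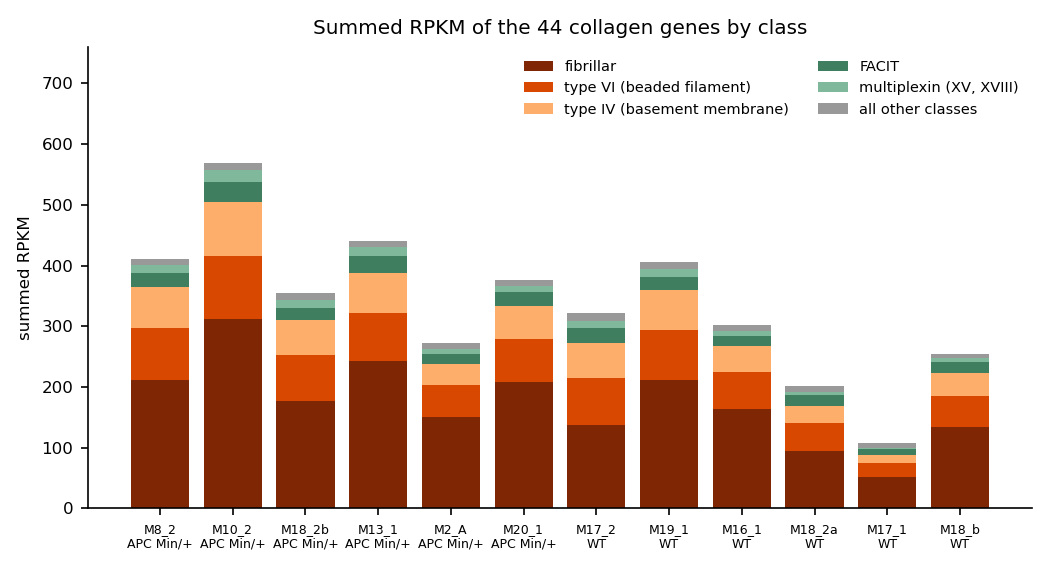
Summed RPKM of the 44 collagen genes in each mouse (y axis), stacked by collagen class, with the 6 APC Min/+ mice on the left and the 6 WT mice on the right. The bar of M10_2 reaches 569, that of M17_1 108, and the fibrillar genes form the largest block in every bar.

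The levels were led by Col3a1, the type III chain of extensible fibrils, with a mean of 101 RPKM. Col6a1 of type VI followed with 40.8 RPKM, then the type I chain Col1a1 with 27.0, Col4a1 with 24.9, the other type I chain Col1a2 with 23.98, Col4a2 with 16.6, Col6a2 with 14.8 and the FACIT gene Col14a1 with 10.21. Neighbours in this order overlapped in their ranges over the mice, Col3a1 and Col6a1 included, although Col3a1 was above Col6a1 in each of the 12 mice. The order also depended on the length used. The deposited lengths add up all annotated exonic bases of a gene, and for Col1a2 this was 12136 bases against 5348 in its longest coding transcript. With the transcript lengths, Col1a2 was at 54.4 RPKM and second, and Col3a1 was still first with 152.

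**Figure D2:**
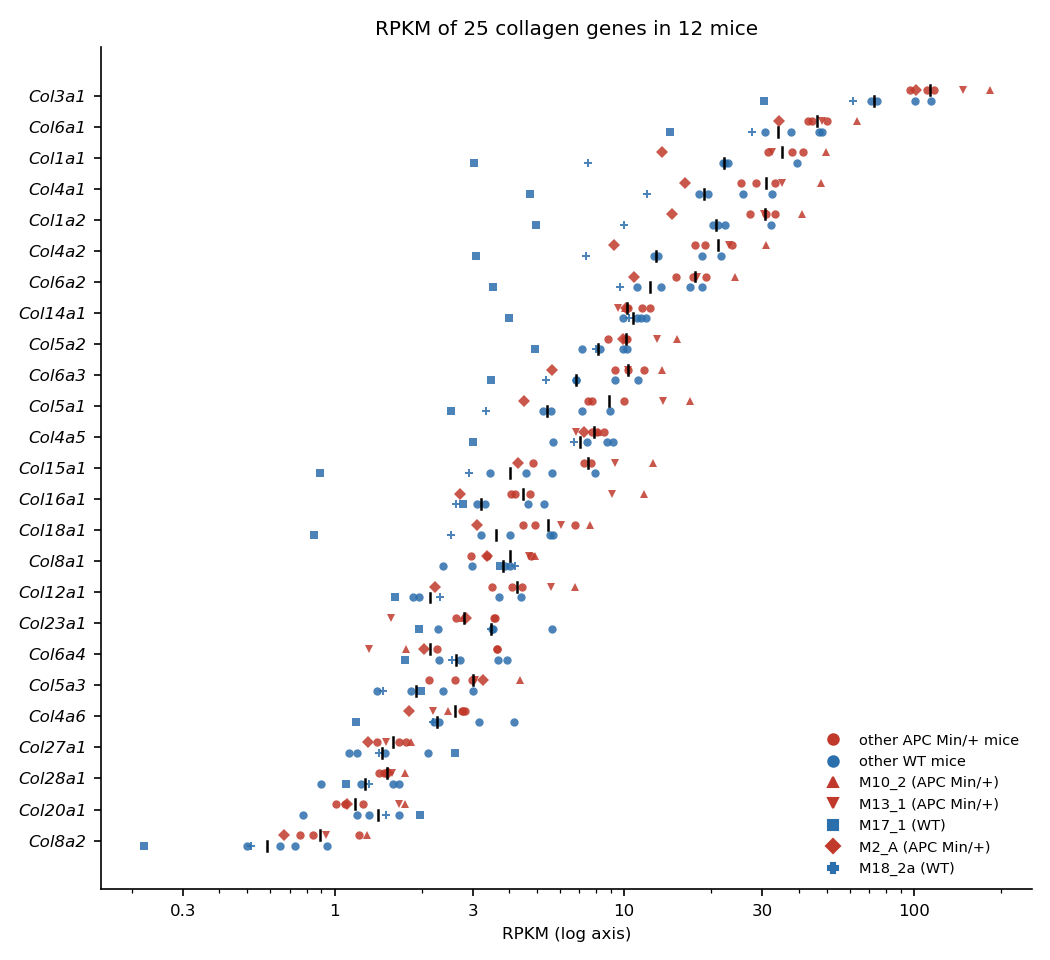
RPKM (log axis) of 25 collagen genes in each mouse, with a row per gene in order of mean level, APC Min/+ mice in red above WT mice in blue, black bars at the group medians, and 5 mice with symbols of their own. The genotypes overlap in every row, and the square of M17_1 lies far to the left in most of the upper rows.

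The comparison of genotypes asks whether collagen RNA differed between the genotypes at 6 weeks of age. With edgeR's quasi-likelihood test, 0 of the 42 members tested passed an FDR of 0.05 with a change of at least 2-fold, as did 0 of the 20311 genes tested (0.0%). The lowest adjusted p of a member was 0.908. DESeq2, edgeR's likelihood ratio test and limma-voom also called 0 members. Among all genes, DESeq2 called 27 (0.133%), the likelihood ratio test 15 and limma-voom 0. At an unadjusted p under 0.05, 7 members were higher in APC Min/+ mice (16.7% of those tested, against 3.46% of all genes tested) and 0 were lower (1.81% of all genes). These were Col3a1, Col5a1, Col5a2, Col5a3, Col8a2, Col12a1 and Col16a1. The median log2 fold change of the members was 0.36, beside a median of -0.01 over all genes. It was above 0 in 29 members and below 0 in 13, so that 69.0% were above 0, against 48.4% of all genes tested. The genotypes overlapped in every member, and the number without overlap was 0, against 0.0886% of all genes. No collagen gene thus passed the test, and the values that follow describe these 12 mice.

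The number of members at an unadjusted p under 0.05 changed with some single mice. It was 1 without M10_2, 3 without M18_2a, 4 without M18_b and 15 without M19_1. Over all genes tested, the number in either direction was 1071 with all mice, and 524, 752, 1045 and 1119 without these mice in the same order. When any other single mouse was left out, the number of members was between 6 and 10, and without M17_1 alone it was 7. Without both M10_2 and M13_1 there were 3 members and 317 genes in all, and the median log2 fold change of the members was 0.30. Without M8_2 alone this median was 0.21. The 3 members without M10_2 and M13_1 were Col5a3 and Col11a1, which were higher in APC Min/+ mice, and Col24a1, which was lower. When M17_1 was left out as well, Col5a3 and Col11a1 had an unadjusted p under 0.05, beside 246 genes in all. The median log2 fold change of the members was then 0.17. Part of this fall follows from the choice of M17_1 by its low collagen values. Col5a3 was the member with an unadjusted p under 0.05 in all 23 alternative fits. These fits share most of their mice, and how many of all genes did the same was not counted.

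**Figure D3:**
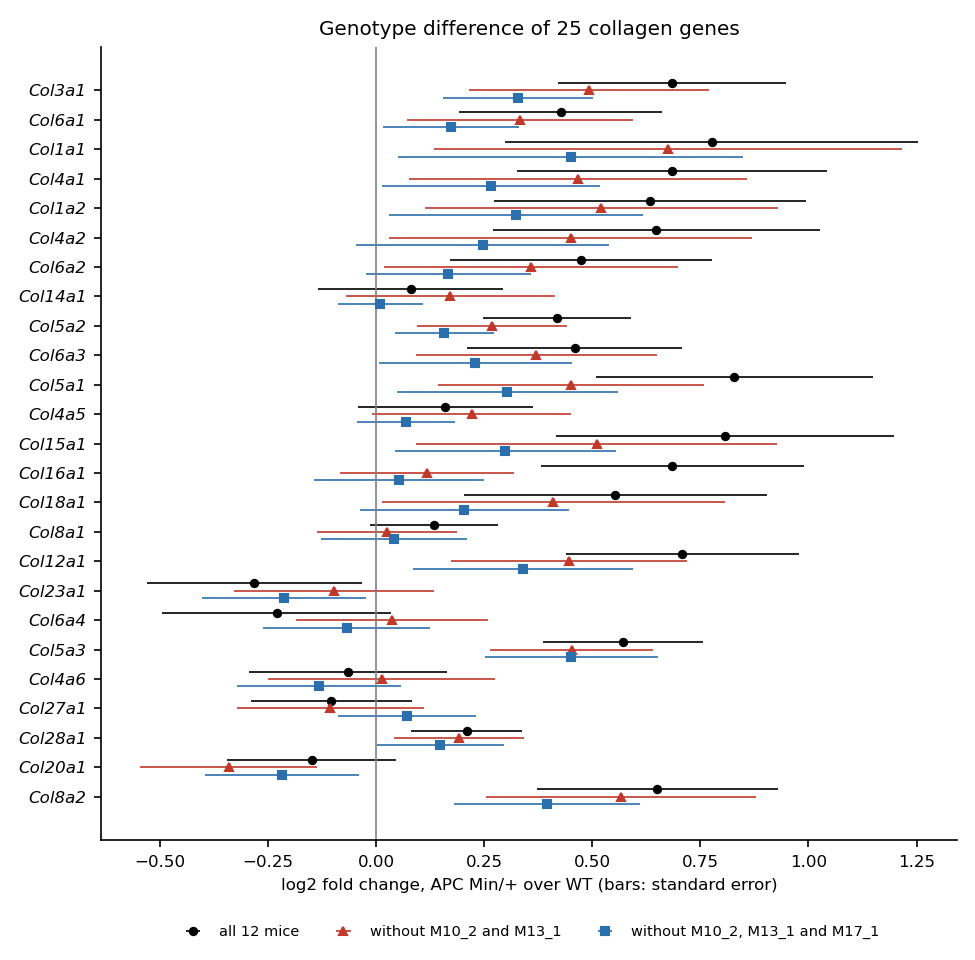
Log2 fold change of APC Min/+ over WT (x axis, bars are standard errors) for the same 25 genes, in black with all 12 mice, in red without M10_2 and M13_1, and in blue without M17_1 as well. Most upper rows move toward 0 from black to blue, Col16a1 from 0.69 to 0.05, while Col5a3 moves from 0.57 to 0.45. M17_1 was left out for its low collagen values, so part of this shift follows from that choice.

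Among the fibrillar genes, the summed RPKM was lowest at 150, 210 at the median and highest at 312 in the APC Min/+ mice, and 51.8, 135 and 211 in the WT mice. Of the 10 tested, 7 had a log2 fold change above 0 and 4 were higher at an unadjusted p under 0.05, with a median log2 fold change of 0.49. Over all genes tested these shares were 48.4% and 3.46%. The difference between the genotypes in the mean log2 of the summed RPKM was 0.81 with all mice, 0.62 without M10_2 and M13_1, 0.56 without M17_1 and 0.37 without all of these.

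Col3a1 (ENSMUSG00000026043.12, chromosome 1, 45311538 to 45349706) had 96.9 RPKM in the lowest APC Min/+ mouse, 114 at the median and 183 in the highest. In the WT mice these were 30.5, 72.9 and 114 RPKM. The highest WT mouse lay above the 3 lower APC Min/+ mice, and M10_2 and M13_1 were the 2 highest mice. APC Min/+ exceeded WT by a log2 fold change of 0.68 ± 0.26 (standard error, unadjusted p = 0.0217, adjusted p = 0.908 with edgeR's quasi-likelihood test). It was 0.49 ± 0.28 without M10_2 and M13_1, and 0.33 ± 0.17 without M17_1 as well.

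The type I chains form the thickest fibers of the gut wall. Col1a1 (ENSMUSG00000001506.10, chromosome 11, 94936224 to 94953042) had 13.6, 35.2 and 49.6 RPKM in the lowest, median and highest APC Min/+ mouse. In the WT mice it had 3.02, 22.2 and 39.6 RPKM, a 16.4-fold range over all mice. The low values were M17_1 at 3.02, M18_2a at 7.51 and the APC Min/+ mouse M2_A at 13.6. Col1a2 (ENSMUSG00000029661.10, chromosome 6, 4504814 to 4541544) had 14.6, 30.6 and 41.0 RPKM in the APC Min/+ mice and 4.95, 20.7 and 32.1 RPKM in the WT mice, with the same 3 mice lowest. The log2 fold changes were 0.78 ± 0.48 for Col1a1 and 0.63 ± 0.36 for Col1a2 (standard errors), with unadjusted p of 0.128 and 0.102. In both genes the range of each genotype contained the median of the other.

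Type V collagen is the minor chain set that starts type I fibrils and limits their width. Col5a1 (chromosome 2, 27886425 to 28039514) had 4.52, 8.87 and 16.9 RPKM in the lowest, median and highest APC Min/+ mouse, and 2.52, 5.41 and 8.90 RPKM in the WT mice. Col5a2 (chromosome 1, 45374321 to 45503282), which lies next to Col3a1, had 8.79, 10.1 and 15.2 RPKM against 4.90, 8.10 and 10.3 RPKM. Col5a3 (chromosome 9, 20770050 to 20815067) had 2.12, 3.01 and 4.37 RPKM against 1.40, 1.91 and 3.004 RPKM. For Col5a1 and Col5a2 the highest mice were M10_2 and M13_1, whereas for Col5a3 they were M10_2 and M2_A. The log2 fold changes were 0.83 ± 0.32, 0.42 ± 0.17 and 0.57 ± 0.18 (standard errors), with unadjusted p of 0.0226, 0.0288 and 0.0085. Without M10_2, M13_1 and M17_1 they were 0.30, 0.16 and 0.45.

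The cartilage chains were low. Col2a1, the chain of cartilage, had between 0 and 8 counts in a mouse and was not tested. Col11a1 was at 0.351 ± 0.148 RPKM in APC Min/+ and 0.265 ± 0.0755 RPKM in WT mice (SD, n = 6 each), and Col11a2 at 0.259 ± 0.0290 and 0.303 ± 0.0740 RPKM. Of the fibrillar genes with shorter helices, Col27a1 was at 1.62 RPKM on average and Col24a1 at 0.397. Unlike the other fibrillar genes with at least 1 RPKM, Col27a1 was highest in M17_1, at 2.60 RPKM, and Col24a1 was also highest there, at 0.648 RPKM.

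The type IV genes lie in head-to-head pairs. Col4a1 and Col4a2, the chains of nearly every basement membrane, start 21 bases apart on chromosome 8 on opposite strands, and their annotated first exons share 22 bases. Col4a1 (chromosome 8, 11198423 to 11312826) had 16.2, 30.9 and 47.9 RPKM in the lowest, median and highest APC Min/+ mouse, and 4.73, 18.8 and 32.4 RPKM in the WT mice. Col4a2 (chromosome 8, 11312805 to 11449287) had 9.19, 21.1 and 30.8 RPKM against 3.08, 12.9 and 21.6 RPKM. In both genes M10_2 was highest and M17_1, M18_2a and M2_A were lowest, and the genotypes overlapped. The log2 fold changes were 0.68 ± 0.36 and 0.65 ± 0.38 (standard errors), with unadjusted p of 0.0783 and 0.110, and 0.27 and 0.25 without M10_2, M13_1 and M17_1.

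The other type IV chains were lower. Col4a5 and Col4a6 are the X-linked pair that also serves the basement membrane of smooth muscle. Col4a5 had 6.84, 7.87 and 8.54 RPKM in the APC Min/+ mice and 3.01, 7.06 and 9.12 RPKM in the WT mice, and Col4a6 had 1.80, 2.61 and 2.81 against 1.19, 2.25 and 4.16 RPKM. Their log2 fold changes of 0.16 ± 0.20 and -0.06 ± 0.23 were smaller than their standard errors, and the sign of the latter changed with the setting. Col4a3 and Col4a4, known from the kidney glomerulus, were at 0.0920 and 0.0760 RPKM, with between 16 and 262 counts in a mouse. Over the 6 type IV genes, 0 had an unadjusted p under 0.05 and 5 had a log2 fold change above 0, as did 48.4% of all genes tested.

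The multiplexins carry sugar chains and anchor basement membranes, and the C-terminal part of type XVIII is the source of endostatin. Col15a1 had 4.29, 7.48 and 12.6 RPKM in the APC Min/+ mice and 0.891, 4.02 and 7.94 RPKM in the WT mice, a 14.1-fold range over all mice. Col18a1 had 3.10, 5.47 and 7.63 RPKM against 0.848, 3.62 and 5.69 RPKM. M17_1 was lowest and M10_2 highest in both. The log2 fold changes were 0.81 ± 0.39 and 0.55 ± 0.35 (standard errors), with unadjusted p of 0.0595 and 0.138. Col7a1, the anchoring fibril of stratified epithelia, was at 0.236 RPKM.

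Of the type VI genes, Col6a1 had 34.2, 46.4 and 63.4 RPKM in the lowest, median and highest APC Min/+ mouse, and 14.4, 34.1 and 48.2 RPKM in the WT mice. Its partner Col6a2, 102538 bases away on the same strand of chromosome 10, had 10.8, 17.6 and 24.2 RPKM against 3.52, 12.2 and 18.6 RPKM. Col6a3, the longest of the 3 main chains, had 5.63, 10.3 and 13.5 RPKM against 3.48, 6.81 and 11.1 RPKM. All 3 were again lowest in M17_1 and highest in M10_2. Their log2 fold changes were 0.43 ± 0.24, 0.47 ± 0.30 and 0.46 ± 0.25 (standard errors), with unadjusted p between 0.0877 and 0.141. Col6a4, an alternative to Col6a3, had 1.32, 2.14 and 3.64 RPKM in the APC Min/+ mice and 1.75, 2.62 and 3.93 RPKM in the WT mice. Its log2 fold change was -0.23 ± 0.26. The lowest mice were M13_1 at 1.32, M17_1 at 1.75 and M10_2 at 1.76 RPKM, although M10_2 was the highest mouse for Col6a1, Col6a2 and Col6a3. Without M10_2 and M13_1 its log2 fold change was 0.04. Col6a5 and Col6a6, further alternatives to Col6a3, were at 0.493 and 0.0685 RPKM.

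The FACIT genes were led by Col14a1, which binds fibrils in tissue under tension. It had 9.53, 10.3 and 12.3 RPKM in the APC Min/+ mice and 9.93 to 11.9 RPKM in 5 of the WT mice, with M17_1 alone at 4.002. Its log2 fold change of 0.08 ± 0.21 was smaller than its standard error and turned negative without M17_1, at -0.08. Col12a1, the relative of Col14a1 on dense fibrils, had 2.22, 4.26 and 6.75 RPKM in the APC Min/+ mice and 1.61, 2.13 and 4.39 RPKM in the WT mice. Col16a1, which is found in smooth muscle and at its junction with matrix, had 2.70, 4.46 and 11.7 RPKM against 2.62, 3.21 and 5.30 RPKM. M10_2 at 11.7 and M13_1 at 9.05 RPKM stood above every other mouse, whose highest value was 5.30. The log2 fold changes were 0.71 ± 0.27 for Col12a1 and 0.69 ± 0.30 for Col16a1 (standard errors, unadjusted p of 0.0204 and 0.0415, adjusted p of 0.908 for both with edgeR's quasi-likelihood test). Without M10_2 and M13_1 that of Col12a1 was 0.45 and that of Col16a1 was 0.12. Col20a1 had 1.01, 1.17 and 1.75 RPKM against 0.775, 1.41 and 1.98 RPKM, with a log2 fold change of -0.15 ± 0.20. The remaining 5 FACIT genes were below 1 RPKM, with Col9a2 at 0.592, Col9a3 at 0.179, Col9a1 at 0.0645, Col22a1 at 0.0536 and Col19a1 at 0.00897 RPKM.

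The short-chain network genes Col8a1 and Col8a2 encode the subendothelial collagen VIII. Col8a1 had 2.96, 4.03 and 4.93 RPKM in the APC Min/+ mice and 2.37, 3.81 and 4.19 RPKM in the WT mice. Its log2 fold change was 0.13 ± 0.15. Col8a2 had 0.670, 0.887 and 1.29 RPKM against 0.219, 0.583 and 0.939 RPKM, with 0.65 ± 0.28 (standard error, unadjusted p = 0.0362). Col10a1, the chain of hypertrophic cartilage, had between 0 and 10 counts and was not tested. The transmembrane collagens were led by Col23a1, with 1.56, 2.80 and 3.59 RPKM against 1.95, 3.47 and 5.65 RPKM and a log2 fold change of -0.28 ± 0.25. Col13a1 and Col25a1 were at 0.476 and 0.377 RPKM, and Col17a1, the hemidesmosome collagen of skin, at 0.0517. Col28a1, which is known from glial cells of peripheral nerves, had 1.42, 1.52 and 1.76 RPKM against 0.896, 1.27 and 1.67 RPKM, with a log2 fold change of 0.21 ± 0.13. Col26a1 was at 0.0264 RPKM.

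Chains that form a joint trimer or lie head to head were compared across the 12 mice on the log2(RPKM + 0.01) scale, in 8 pairs, with p from 100000 permutations, two-sided, adjusted over the pairs. Col1a1 and Col1a2, on different chromosomes, had a Pearson r of 0.998 and a Spearman rho of 0.979 (permutation p = 1e-05 for both, the smallest these permutations can give, adjusted 2e-05). Without the 2 mice farthest from the median of Col1a1, M17_1 and M18_2a, r was 0.990. For Col4a1 and Col4a2 r was 0.995 and rho 0.993 (permutation p = 1e-05, adjusted 2e-05), and 0.982 without the same 2 mice. For Col6a1 with Col6a2 r was 0.993 and rho 0.979, and for Col6a1 with Col6a3 r was 0.956 and rho 0.965 (permutation p = 1e-05, adjusted 2e-05, for each of these). Without the farthest mice these r were 0.982 and 0.919. These genes share depth, tissue piece and base composition in a mouse, so the correlations describe these libraries. An r this high was not particular to partners. Among the genes most like the mean log2 CPM of Col1a1, Col1a2 and Col3a1, given below, Col4a1 had an r of 0.977 and Zfp787 of 0.959.

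The remaining pairs were looser. Col5a1 and Col5a2 had r = 0.866 and rho = 0.846 (permutation p = 0.00024 and 0.0009, adjusted 0.000384 and 0.0012), and r = 0.681 without M10_2 and M17_1. Col4a5 and Col4a6 had r = 0.847 and rho = 0.874 (permutation p = 0.00071 and 0.00044, adjusted 0.000947 and 0.000704), and r = 0.786 without M17_1 and M18_b. For Col4a3 and Col4a4, which start 72 bases apart, r was 0.361 and rho 0.343 (permutation p = 0.248 and 0.276, adjusted 0.283 and 0.295). Without the farthest mice, M13_1 and M17_1, r was 0.510. For Col8a1 and Col8a2, r was 0.215 and rho 0.329 (permutation p = 0.505 and 0.295, adjusted 0.505 and 0.295), and r was -0.111 without M10_2 and M18_b. Col4a1 was between 1.38 and 1.76 times Col4a2, and Col8a1 between 2.44 and 17.04 times Col8a2. Col1a1 was between 0.609 and 1.26 times Col1a2 per deposited length, lowest in M17_1.

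**Figure D4:**
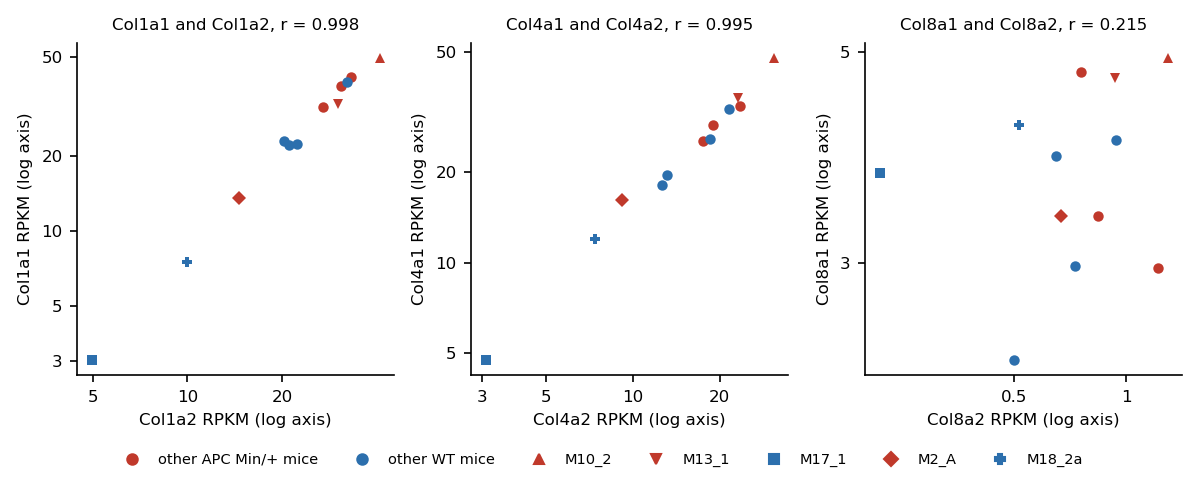
RPKM of partner chains in each mouse (both axes logarithmic), APC Min/+ in red and WT in blue, for Col1a1 against Col1a2, Col4a1 against Col4a2 and Col8a1 against Col8a2. The first and second pair fall on a line with r of 0.998 and 0.995, and the third does not, with r of 0.215.

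The genes that act on collagen were read from 6 lists. Over all genes tested, 3.46% were higher and 1.81% lower in APC Min/+ mice at an unadjusted p under 0.05, and a count of 1 or 2 genes in a list cannot be told from that share. Of 16 genes for synthesis and folding, 2 were higher in APC Min/+ mice at an unadjusted p under 0.05 and 0 lower, with a median log2 fold change of 0.15. These were Serpinh1, the collagen chaperone HSP47, at 46.0 ± 6.37 against 34.5 ± 8.30 RPKM (SD, n = 6 each), and P4ha3, a prolyl hydroxylase subunit, at 0.353 ± 0.0982 against 0.214 ± 0.0954 RPKM. Of 13 genes for propeptide cleavage and cross-linking, 1 was higher and 0 lower (median 0.28), namely Loxl1, a lysyl oxidase, at 5.60 ± 1.48 against 3.13 ± 1.5 RPKM. Of 8 tested genes of fibril-binding proteoglycans, 1 was higher and 0 lower (median 0.05), namely Fmod, fibromodulin, at 0.416 ± 0.220 against 0.224 ± 0.0805 RPKM.

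Of 8 tested collagen receptors, 0 had an unadjusted p under 0.05 (median -0.04), and those with the 2 highest levels, the integrin chain Itgb1 and the discoidin receptor Ddr1, had log2 fold changes of -0.08 ± 0.11 and 0.21 ± 0.34 (standard errors). The list holds 9 receptors, and Gp6 did not reach 10 counts in 3 mice and was not tested. It was at 1.01 RPKM in M10_2 and 1.12 in M13_1, and at most 0.0542 in every other mouse. The authors list Gp6 among their upregulated genes. Of 13 tested genes of collagen breakdown, which include the protease inhibitors Timp1 to Timp4, 2 were higher and 0 lower (median 0.35). These were the protease inhibitor Timp4, at 1.25 ± 1.40 against 0.415 ± 0.143 RPKM, and the stromelysin Mmp10, at 0.562 ± 0.647 against 0.168 ± 0.133 RPKM, in which the SD exceeded the mean in the APC Min/+ mice. Timp4 was highest in M13_1 and M10_2 and Mmp10 in M10_2 and M13_1. As the list mixes proteases with inhibitors, its median gives no direction of breakdown. Of the 15 other basement membrane genes, 2 were higher and 0 lower (median 0.26), among them the laminin chain Lama1, at 0.211 ± 0.0710 against 0.127 ± 0.0242 RPKM. In edgeR's quasi-likelihood test 0 genes of these lists passed an FDR of 0.05 with a change of at least 2-fold. Without M10_2 and M13_1, the count at an unadjusted p under 0.05 was 0 in the first 5 lists and 1 in the last.

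The spread between mice was described for the collagen genes and for all genes. The SD of log2 CPM over the 12 mice had a median of 0.51 over the 42 members and of 0.35 over all genes tested, and of 0.44 and 0.31 without M17_1. Against the median mouse of each gene, the 24 members with at least 1 RPKM were at a median log2 difference of -1.32 in M17_1, -0.60 in M18_2a, -0.34 in M2_A, -0.33 in M18_b and 0.53 in M10_2. In M17_1, Col1a1 was at -3.15 and Col3a1 at -1.74, and 22 of the 24 were below 0.

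Other measures were set beside these for each mouse. In the 331 tested coding genes in the highest of 5 bins of both GC content (from 56.0%) and transcript length (from 5027 bases), 12 of which were collagen genes, the median log2 difference was -0.62 in M2_A, -0.54 in M17_1, -0.31 in M18_2a, -0.07 in M18_b and 0.32 in M10_2. Over all coding genes it was between -0.02 and 0.02 in every mouse. Among the 24 collagen genes, Spearman's rho between GC content and the log2 difference was -0.28 in M17_1, -0.52 in M18_2a, -0.36 in M2_A, 0.00 in M18_b and 0.49 in M10_2, which describes genes and not replicates. The summed RPKM of the 8 fibroblast markers, all of them detected, was between 341 and 606 in APC Min/+ and 379 and 523 in WT mice, and stood at 428 in M17_1. Taken singly, M17_1 was the lowest mouse for Dpt, Fbln1, Pdgfrb and Pi16, but not for Pdgfra, Mfap5, Dcn and Lum. The summed RPKM of the 9 smooth muscle markers, all detected, was between 1815 and 3034 in APC Min/+ and 1813 and 2465 in WT mice, and stood at 2197 in M17_1. Here M17_1 was the lowest mouse for Des, Lmod1, Synpo2, Smtn and Myh11, but not for Acta2, Actg2, Tagln and Cnn1. Of these 9 genes, 7 had a log2 fold change above 0, as did 48.4% of all genes tested. Des, Actg2 and Cnn1 were higher in APC Min/+ mice at an unadjusted p under 0.05, against 3.46% of all genes tested. Without M10_2 and M13_1, 2 of the 9 were higher at that p, beside 317 of all genes in either direction. The summed RPKM of the 7 endothelial markers was 24.97 in M17_1, against 24.6 to 41.9 in the other WT mice. M17_1 was the lowest mouse for Tek, Kdr, Vwf and Cdh5, but not for Emcn, Lyve1 and Pecam1. Markers of enteric neurons and glia were between 9.25 and 24.1 RPKM over all mice, of squamous epithelium between 3.05 and 95.2, of adipocytes between 29.6 and 575, and of skeletal muscle between 12.4 and 28.0. The squamous sum was nearly all Sprr1a, at a mean of 27.6 RPKM, while Krt5, Krt4, Trp63 and Dsg3 had means between 0.0117 and 0.0351. The skeletal muscle sum was mostly Ckm, at a mean of 16.2 RPKM, with Myh2 at 0.0613 and Myh4 at 0.000629. The sum for mesothelium, between 815 and 1266, was nearly all Krt19, a keratin of colon epithelium too, at a mean of 1049 RPKM, and the other 4 markers had means between 0.186 and 1.91. The sum for cartilage and bone, between 2.66 and 13.2, was nearly all Sox9, which colon crypts also express, at a mean of 7.28 RPKM. The sums for mesothelium and for cartilage and bone do not measure the named tissue, and those for squamous epithelium and skeletal muscle rest mainly on 1 gene each. The part of base composition, transcript length and cell content in the collagen values was not tested.

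**Figure D5:**
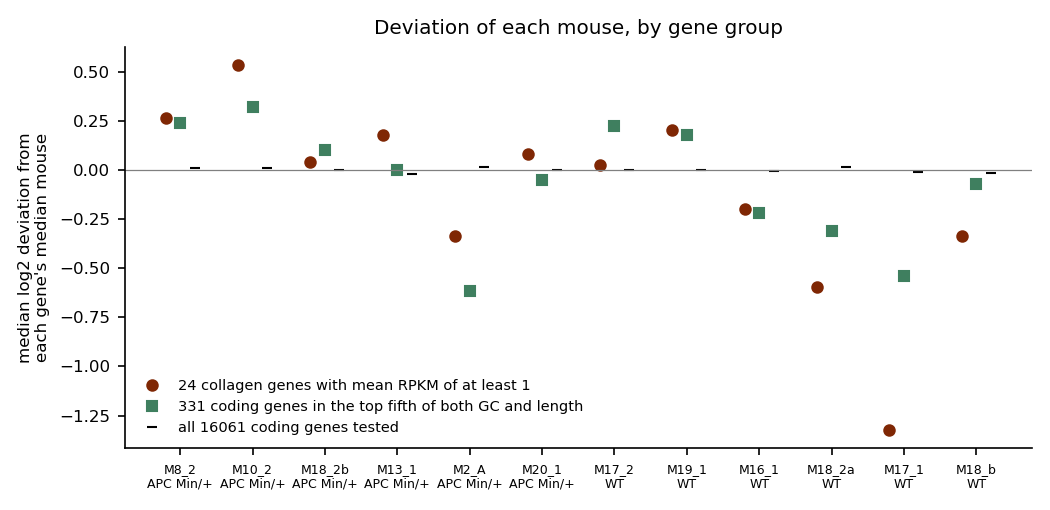
Median log2 difference of each mouse from the median mouse of each gene (y axis), for the 24 collagen genes with at least 1 RPKM, the 331 coding genes in the highest of 5 bins of both GC content and length, and all 16061 tested coding genes. The collagen genes lie at -1.32 in M17_1, the long GC-rich genes at -0.54 there and at -0.62 in M2_A, and all coding genes near 0.

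The genes whose pattern over the 12 mice was most like the mean log2 CPM of Col1a1, Col1a2 and Col3a1 were taken from 10450 tested genes with a mean log2 CPM of at least 3. Of the 10 most alike, 4 were collagen genes, namely Col4a1 with a Pearson r of 0.977, Col4a2 with 0.974, Col6a1 with 0.962 and Col6a2 with 0.957. Fkbp10, a prolyl isomerase that folds procollagen, had 0.970. The others were Zfp787 and Marcks with 0.959, Sod3, the extracellular superoxide dismutase, and Eml2 with 0.956, and Adprh with 0.955. All 10 were lowest in M17_1. No r without M17_1 is given, so how far this order rests on that mouse is not known. As for the partner chains, these genes share depth, tissue piece and base composition in a mouse. Marcks was the only gene of the 10 with an unadjusted p under 0.05 between the genotypes, with a log2 fold change of 0.48 and an adjusted p of 0.908 with edgeR's quasi-likelihood test.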

How the data were processed

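Proximal colon RNA of 6 APC Min/+ and 6 WT mice was extracted with TRI Reagent and sequenced in paired ends. The authors aligned reads with STAR 2.3.0 to GRCm38.p2 and counted them with featureCounts, and the deposited values are unnormalized counts per gene beside a gene length. The annotation release, strand setting and treatment of multiply mapped reads are not given in the sources used here, and 28 of the 44 collagen genes overlap another annotated gene, so how shared reads were assigned is not known. Symbols and sequences came from GENCODE M21 (37607 of 38924 identifiers matched).

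RPKM was computed from counts, total counts and the deposited length. Genotypes were compared with edgeR 4.0.16 (quasi-likelihood, TMM) in R 4.3.3 on the 20311 genes that reached 10 counts in 3 or more mice, with Benjamini-Hochberg adjustment. Standard errors are the absolute log2 fold change divided by the square root of F. DESeq2 1.42.0 and limma 3.58.1 were alternatives, and scripts were tested on simulated data. CPM was scaled by TMM with a pseudocount of 0.05 on the log scale. At the shallowest library, 3 counts equal 0.0596 CPM. The members and lists were chosen with earlier results of these data known. Collagen genes were described in full at a mean of at least 1 RPKM, an unadjusted p under 0.05 or no overlap of genotypes (25 genes), the pathway genes at an unadjusted p under 0.05 or else the 2 highest of a list, and the 10 genes with the highest r. The values of 1 pathway gene are not reported here.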

Additional observations from a re-analysis of the deposited data

Results flagged for a closer look

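A mouse far from the other 5 of its genotype, by Dixon's test on log2 RPKM at the 95% level, was found in 3 of 70 groups checked, where chance gives about 1 in 20. For Col14a1 in the WT mice M17_1 was lowest, with a gap of 0.833 of the range, at 4.002 RPKM against 9.93 to 11.9 in the others. For Col1a1 in the APC Min/+ mice M2_A was lowest, with a gap of 0.650 of the range, at 13.6 RPKM against 31.5 to 49.6. For Col23a1 in the APC Min/+ mice M13_1 was lowest, with a gap of 0.626 of the range, at 1.56 RPKM against 2.63 to 3.59.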

How the results depend on the processing

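The count of collagen genes past an FDR of 0.05 and 2-fold was 0 in all 23 alternative fits. The count at an unadjusted p under 0.05, 7 with all mice, was 4 with the name suffix as covariate, 3 without M10_2 and M13_1, and between 1 and 15 when each mouse was left out. In fits chosen after seeing the data it was 11 with offsets for GC content and length and 2 without M10_2, M13_1 and M17_1. Over all genes tested, the count was 1071 with all mice, 849 with the suffix and 317 without M10_2 and M13_1. It was between 524 and 1828 when each mouse was left out, 1300 with the offsets and 246 without M10_2, M13_1 and M17_1. Of the 25 genes described in full, 21 kept the sign of the log2 fold change in all alternatives. Col4a6 (-0.06) was 0.028 with limma-voom and 0.013 without M10_2 and M13_1, where Col6a4 was 0.036, and Col27a1 (-0.10) was 0.071 without M10_2, M13_1 and M17_1. Leaving out each mouse gave -0.21 to 0.10 for Col4a6, -0.16 to 0.074 for Col27a1 and -0.083 to 0.16 for Col14a1. The r of Col4a3 and Col4a4 was 0.684 without M10_2 and M13_1 (permutation p = 0.0301), and that of Col8a1 and Col8a2 was -0.111 without the 2 farthest mice and -0.0494 without M10_2 and M13_1. The cause of these changes was not tested. GC content and length were known for 79.1% of the genes tested, and genes without them had no offset. No paired analysis was possible because the labels give no replicate numbers. The mouse names share suffixes across the genotypes, but what these mark is not stated. Genes under about 0.1 RPKM rest on few counts.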
